A study of Mus musculus with 12 samples.

Results

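Prostaglandins, thromboxane and leukotrienes are lipid mediators that macrophages make from arachidonic acid, and the 10 genes described here cover the main enzymes that make them in macrophages and 2 receptors for prostaglandin E2. They are Ptgs1, Ptgs2, Ptges, Hpgds, Tbxas1, Alox5, Alox5ap, Lta4h, Ptger2 and Ptger4. They were chosen by name, and all 10 were found among the 43280 genes of the deposited expression table. Cyclooxygenases, encoded by Ptgs1 and Ptgs2, turn arachidonic acid into prostaglandin H2, from which terminal synthases make prostaglandin E2 (Ptges), prostaglandin D2 (Hpgds) and thromboxane A2 (Tbxas1). 5-Lipoxygenase (Alox5), helped by its activating protein (Alox5ap), makes leukotriene A4, which leukotriene A4 hydrolase (Lta4h) turns into leukotriene B4, an attractant for neutrophils. Prostaglandin E2 acts on macrophages through the receptors EP2 (Ptger2) and EP4 (Ptger4), both of which raise cyclic AMP.

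RNA was sequenced from bone marrow-derived macrophages (BMDM) of C57BL6 mice, which are cells grown out of mouse bone marrow with the growth factor M-CSF. Cells were wild type (wt) or Treml4-/-, lacking a receptor of myeloid cells from the TREM family, and were unstimulated (M0, vehicle PBS) or had received lipopolysaccharide (LPS) at 100 ng/ml for 8 h (M1-8 h) or 12 h (M1-12 h). LPS is a component of the wall of Gram-negative bacteria and drives the inflammatory state called M1. Each of the 6 conditions had 2 biological replicates, which gave 12 libraries. The labels give neither the age nor the sex of the animals, and do not say whether a replicate was 1 animal, so the spread between replicates may be partly technical.

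Between 48008751 and 58500792 reads were counted on genes per library, so 1 read was worth 0.0171 to 0.0208 CPM (reads of a gene per 1000000 counted reads). Treml4 had 198 to 663 reads in the 6 wt libraries and 0 reads in the 6 Treml4-/- libraries, where a count of 0 allows up to 0.0513 to 0.0625 CPM (3 reads). All 8 macrophage markers were detected. They summed to 20712 to 27906 CPM at M0, 10295 to 13416 CPM at M1-8 h and 9996 to 11185 CPM at M1-12 h. The markers moved differently in CPM: from M0 to M1-8 h Lyz2, Csf1r, Cd68 and Adgre1 fell, Fcgr1, Mertk and Itgam rose, and Cd14 overlapped. Adgre1 went from 1823 to 2102 CPM to 1556 to 1783 CPM, and whether it fell relative to the median gene was not tested. Lyz2 went from 10416 to 15208 CPM to 4019 to 6514 CPM, and Fcgr1 from 59.6 to 65.1 CPM to 1105 to 1332 CPM. Csf1r, the receptor for M-CSF, reached at least 1037 CPM in every library. The 6 LPS response markers (Nos2, Il1b, Il6, Tnf, Il12b and Acod1) summed to 83.2 to 113 CPM at M0 and to at least 23662 CPM in every LPS library. Scaled to library size, the median gene of the 12086 tested changed by -0.72 (log2) at 8 h of LPS and by -0.76 at 12 h. With libraries scaled by the median of ratios, these medians were -0.04 at both times, and called genes, which were 2070 higher and 7225 lower at 8 h and 1965 higher and 7284 lower at 12 h, became 3759 and 3788 at 8 h and 3943 and 3934 at 12 h. Treml4-/- M1-8 h replicate 2 stood apart from the other M1-8 h libraries in several eicosanoid genes, and results that rest on it are given with and without it. Without it, all 10 genes were called at 8 h in the same direction as with it. Changes with LPS are given on the CPM scale, and for Ptgs1, Hpgds and Tbxas1 also relative to the median gene. Calls of all 10 genes are given under both scalings.

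A gene was called when its adjusted p was under 0.05 and its change at least 1.4-fold, by limma on log2(CPM + 1) over all 12 libraries. All 10 genes were tested. With LPS, Ptgs2 and Ptges rose, and the other 8 fell, at 8 h and at 12 h. Of all genes tested, 17.1% were called higher and 59.8% lower at 8 h, and 16.3% higher and 60.3% lower at 12 h. On this scale 8 of 10 lower is thus not far above the share among all genes. The median change of the 10 genes was -1.65 on the log2(CPM + 1) scale at 8 h and -2.18 at 12 h. With median of ratios scaling, 31.1% of all genes were called higher and 31.3% lower at 8 h, and 32.6% in each direction at 12 h. Beside these shares, 2 of the 10 genes were called higher and 7 lower at 8 h, and 2 higher and 6 lower at 12 h. Their median change was then -0.93 at 8 h and -1.38 at 12 h. Under that scaling Ptgs2 and Ptges stayed higher, Ptgs1, Alox5, Alox5ap, Lta4h, Ptger2 and Ptger4 stayed lower at both times, Hpgds stayed lower at 8 h but was not called at 12 h, and Tbxas1 was not called at either time. In bulk cultures of this kind, fewer cells of a type and less RNA per cell cannot be told apart.

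**Figure D1:**
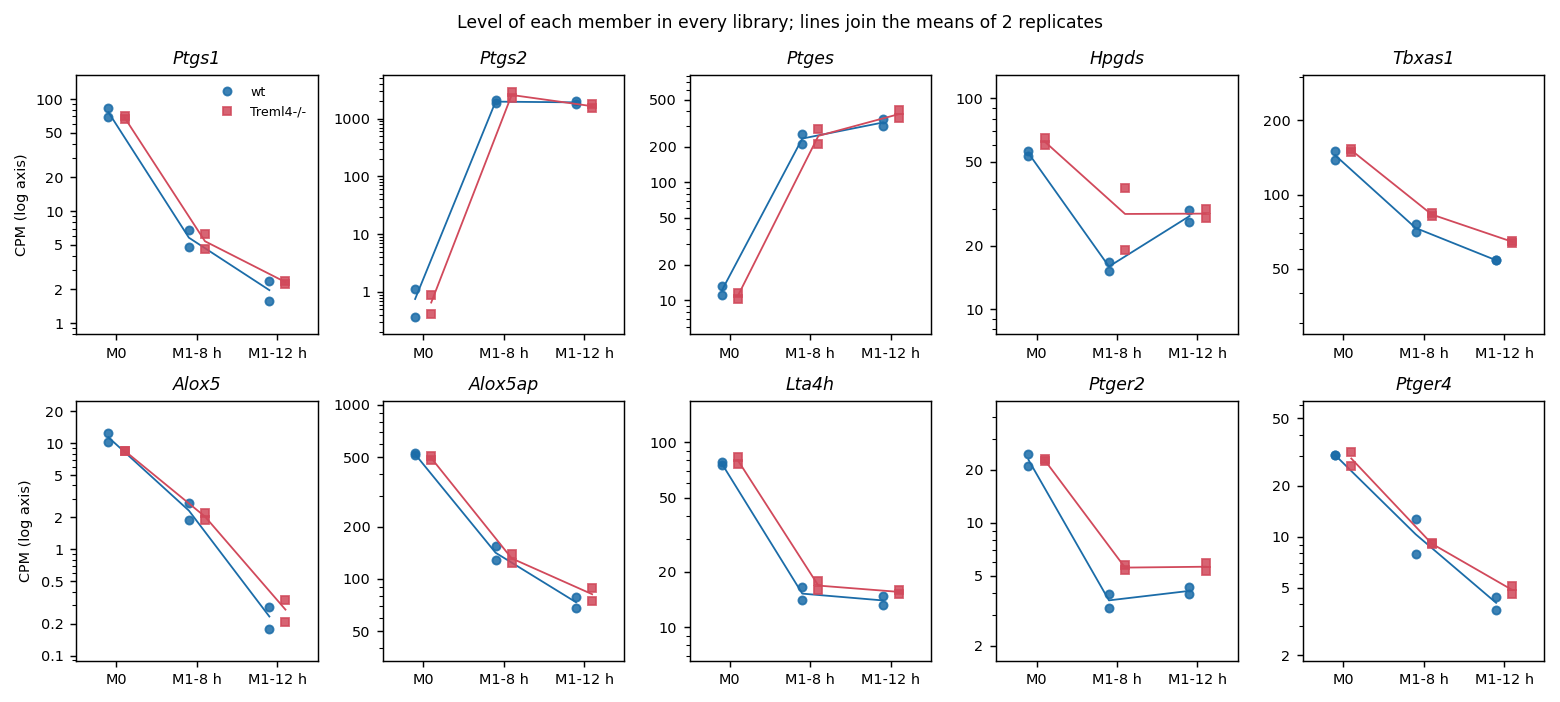
Each panel plots 1 gene, with CPM on a log axis against condition, for the 2 wt libraries (circles) and the 2 Treml4-/- libraries (squares) of each time, and lines join the means of the replicates. Ptgs2 climbs from 1.14 CPM or less to at least 1517 CPM in every LPS library and Ptges from 13.2 CPM or less to at least 210 CPM, while the other 8 genes lie lower in every LPS library than in any M0 library.

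The 2 cyclooxygenases traded places. Ptgs2, the inducible cyclooxygenase (COX-2), lies at chr1:150100031-150108227 on the plus strand of GRCm38. It had 0.366 and 1.14 CPM in the wt libraries and 0.896 and 0.412 CPM in the Treml4-/- libraries at M0, which is 19 to 58 reads. At M1-8 h it had 1866 and 2082 CPM in wt and 2239 and 2909 CPM in Treml4-/- cells. At M1-12 h it had 1821 and 2015 CPM in wt and 1774 and 1517 CPM in Treml4-/- cells. Every LPS library thus lay far above every M0 library. The wt libraries of 8 h and 12 h overlapped and the Treml4-/- libraries were lower at 12 h than at 8 h, and whether the genotypes differ in this step was not tested. The mean went from 0.704 ± 0.377 CPM (SD, n = 4) at M0 to 2274 ± 450 at 8 h and 1782 ± 205 at 12 h, a ratio of means of 3231 and 2532. On the log2(CPM + 1) scale, which understates the change of a gene so low at M0, the rise was 10.39 (SE 0.15, limma adjusted p = 1.61e-13) at 8 h and 10.05 (SE 0.15, adjusted p = 2.27e-13) at 12 h. On the deposited log2 CPM scale the rise was 11.79 and 11.45. By size of rise, Ptgs2 was in place 3 of 12086 tested genes at 8 h and in place 4 at 12 h, and by mean CPM it was the 46th gene of 43280 at 8 h and the 66th at 12 h.

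Ptgs1, the cyclooxygenase that most tissues express without stimulation (COX-1), lies at chr2:36230426-36252272 on the plus strand. Its levels at M0 were 82.8 and 69.8 CPM in wt and 70.6 and 66.3 CPM in Treml4-/- cells. At M1-8 h they were 6.84 and 4.75 CPM in wt and 6.21 and 4.57 CPM in Treml4-/- cells. At M1-12 h they were 2.36 and 1.59 CPM in wt and 2.40 and 2.26 CPM in Treml4-/- cells. The 3 times did not overlap in any library, and each step was downward. Ptgs1 fell by 3.49 (SE 0.13, adjusted p = 2.98e-10) at 8 h and fell by 4.55 (SE 0.13, adjusted p = 3.90e-11) at 12 h on the log2(CPM + 1) scale, and its change relative to the median gene was -2.76 and -3.79. Its mean at 12 h was 2.97% of the mean at M0, and it was the gene with the 83rd largest fall of 12086.

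Levels of the 2 genes can be set side by side per length, as CPM per kilobase of merged exons. Ptgs1 had 17.1 to 21.3 CPM per kilobase at M0, 1.18 to 1.76 at 8 h and 0.409 to 0.617 at 12 h, against 0.0800 to 0.249, 407 to 635 and 331 to 440 for Ptgs2. Ptgs2 thus made up 0.374% to 1.37% of the summed cyclooxygenase level per length in the 4 libraries at M0, 99.6% to 99.8% at 8 h and 99.8% to 99.9% at 12 h. With the longest transcript as the length, an alternative chosen after seeing the data, these ranges were 0.284% to 1.04%, 99.4% to 99.8% and 99.8% to 99.9%.

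Ptges, the inducible microsomal synthase that makes prostaglandin E2 from the product of COX-2, was the other gene that rose. It lies at chr2:30889471-30929863 on the minus strand. It had 11.1 and 13.2 CPM in wt and 10.3 and 11.6 CPM in Treml4-/- cells at M0. At M1-8 h it had 257 and 211 CPM in wt and 284 and 210 CPM in Treml4-/- cells, and at M1-12 h 342 and 299 CPM in wt and 408 and 347 CPM in Treml4-/- cells. Every 12 h library was above every 8 h library. The rise was 4.26 (SE 0.11, adjusted p = 1.78e-11) at 8 h and 4.8 (SE 0.11, adjusted p = 7.43e-12) at 12 h on the log2(CPM + 1) scale, and the means were 20.9 and 30.3 times the mean at M0. From 8 h to 12 h Ptges rose by a further 0.54 (SE 0.11, adjusted p = 0.00161), just over the 1.4-fold threshold. That call was lost when wt M1-8 h replicate 2, Treml4-/- M1-8 h replicate 2 or Treml4-/- M1-12 h replicate 1 was left out, with log2 changes of 0.47, 0.43 and 0.48, each below 1.4-fold.

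The sequences just before the transcription start are shown for the pair of genes that rose and for the 2 genes whose mean CPM fell by the largest factor at 12 h, Ptgs1 and Alox5. They are the 250 bases before the RefSeq start on GRCm38.p6, read 5′ to 3′ on the strand of the gene, and capitals mark matches to any of the motifs named after them. The windows are chr1:150099781-150100030 (plus strand) for Ptgs2, chr2:30903298-30903547 (minus strand) for Ptges, chr2:36230176-36230425 (plus strand) for Ptgs1 and chr6:116461179-116461428 (minus strand) for Alox5. The Ptges window lies inside the gene as annotated by GENCODE M21, whose longest span starts further upstream.
Ptgs2: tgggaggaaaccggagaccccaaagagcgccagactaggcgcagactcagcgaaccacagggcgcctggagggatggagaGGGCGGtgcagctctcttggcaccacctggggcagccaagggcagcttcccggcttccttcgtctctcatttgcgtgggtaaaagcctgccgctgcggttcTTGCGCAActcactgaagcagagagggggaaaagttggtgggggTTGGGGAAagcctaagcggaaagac
Ptges: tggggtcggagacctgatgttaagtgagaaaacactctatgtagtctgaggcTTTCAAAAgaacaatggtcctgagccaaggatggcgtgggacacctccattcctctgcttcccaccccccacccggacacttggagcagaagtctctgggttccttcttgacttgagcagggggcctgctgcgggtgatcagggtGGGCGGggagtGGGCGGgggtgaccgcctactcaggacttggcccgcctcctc
Ptgs1: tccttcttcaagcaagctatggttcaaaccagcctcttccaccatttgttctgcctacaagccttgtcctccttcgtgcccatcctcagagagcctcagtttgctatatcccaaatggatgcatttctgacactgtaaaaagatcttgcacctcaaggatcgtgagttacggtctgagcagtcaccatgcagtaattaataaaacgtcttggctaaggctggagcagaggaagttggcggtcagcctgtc
Alox5: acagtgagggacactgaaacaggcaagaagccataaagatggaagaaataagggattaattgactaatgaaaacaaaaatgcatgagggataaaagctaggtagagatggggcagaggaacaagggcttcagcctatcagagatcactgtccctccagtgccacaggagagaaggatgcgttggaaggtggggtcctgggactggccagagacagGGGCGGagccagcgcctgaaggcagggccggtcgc
Motifs were searched on both strands in the window of 250 bases before to 50 bases after the start. RefSeq windows were found for 9 of the 10 genes, the exception being Alox5ap. Letters of the C/EBP kind (TTNNGNAA) were in the windows of Ptgs2, Ptges, Hpgds and Ptger2, and in 40.7% of the 32817 windows of all genes. In Ptgs2 they stood at bases -69 to -62 and -25 to -18, counted back from the start, and in Ptges at -198 to -191. The GC box (GGGCGG) was in Ptgs2, Ptges, Alox5 and Ptger4 and in 35.6% of all windows. Of the 9 windows, only that of Ptgs2 held the half-site of the cyclic AMP response element (TGACG, in 20.8% of all windows) and the E-box (CACGTG, in 7.15%), which overlap each other at bases 14 to 18 and 17 to 22 after the start and so are not in the printed stretch. The full element (TGACGTCA, in 1.79% of all windows) and the NF-kB motif (in 4.5%) were in none of the 9. The AP-1 motif (TGANTCA, in 7.81%) and TATAAA (in 13.6%) were in that of Tbxas1 alone. The Tbxas1 window, chr6:38918736-38918985 (plus strand), lies inside the gene as annotated by GENCODE M21, which starts upstream at 38875404. The Ptgs1 window had no match to any of these motifs.

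The other 2 prostaglandin H2-using synthases fell, and less than the cyclooxygenase Ptgs1. Hpgds, which makes prostaglandin D2 (chr6:65117293-65144908, minus strand), had 56.4 and 53.5 CPM in wt and 59.9 and 65 CPM in Treml4-/- cells at M0. At M1-8 h it had 15.1 and 16.7 CPM in wt and 19.1 and 37.5 CPM in Treml4-/- cells, and at M1-12 h 29.5 and 25.8 CPM in wt and 29.8 and 26.9 CPM in Treml4-/- cells. Treml4-/- M1-8 h replicate 2 stood apart, at 37.5 CPM, above every 12 h library, while the other 8 h libraries were below all of them. Hpgds fell by 1.46 (SE 0.16, adjusted p = 3.33e-06) at 8 h and fell by 1.04 (SE 0.16, adjusted p = 6.24e-05) at 12 h. Relative to the median gene these changes were -0.73 and -0.29, and with median of ratios scaling the 12 h change was -0.21 and was not called (adjusted p = 0.216). From 8 h to 12 h its log2 change was 0.42 (SE 0.16, adjusted p = 0.0406), under the 1.4-fold threshold, and it was 0.65, and was called, without Treml4-/- M1-8 h replicate 2. Mast cells also express Hpgds, and the 8 mast cell and basophil markers summed to 0.118 to 0.786 CPM at M0, 0.464 to 0.872 at 8 h and 0.173 to 0.458 at 12 h, with Fcer1a, Mcpt4 and Tpsb2 at 0 reads in all 12 libraries.

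Tbxas1, thromboxane A synthase (chr6:38875404-39084585, plus strand), had 138 and 150 CPM in wt and 149 and 154 CPM in Treml4-/- cells at M0. It had 75.7 and 70.6 CPM in wt and 82.1 and 84.0 CPM in Treml4-/- cells at M1-8 h, and 54.1 CPM in both wt libraries and 63.7 and 64.9 CPM in the Treml4-/- libraries at M1-12 h. The 3 times did not overlap. Tbxas1 fell by 0.92 (SE 0.05, adjusted p = 1.52e-08) at 8 h and fell by 1.31 (SE 0.05, adjusted p = 6.97e-10) at 12 h on the log2(CPM + 1) scale. Of the 10 genes it lay closest to the median gene at 8 h, at -0.19 relative to it, and with median of ratios scaling its change was -0.12 (adjusted p = 0.105) at 8 h and -0.47 at 12 h, the latter below 1.4-fold. Platelets and their precursors also express Tbxas1 and Ptgs1, and the 7 megakaryocyte and platelet markers summed to 1.22 to 2.71 CPM at M0, 2.41 to 3.95 CPM at 8 h and 2.38 to 3.28 CPM at 12 h. The part of such cells in the changes of Tbxas1 and Ptgs1 was not tested.

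All 3 genes of the leukotriene B4 branch fell. Alox5, 5-lipoxygenase (chr6:116410077-116461178, minus strand), had 10.2 and 12.5 CPM in wt and 8.51 and 8.49 CPM in Treml4-/- cells at M0. It had 2.75 and 1.89 CPM in wt and 1.88 and 2.20 CPM in Treml4-/- cells at M1-8 h. At M1-12 h 0.288 and 0.179 CPM in wt and 0.333 and 0.208 CPM in Treml4-/- cells were left, which is 9 to 16 reads per library. The 3 times did not overlap, and the mean was 21.9% of the M0 mean at 8 h and 2.54% at 12 h. On the log2(CPM + 1) scale Alox5 fell by 1.78 (SE 0.10, adjusted p = 1.31e-08) at 8 h, fell by 3.11 (SE 0.10, adjusted p = 1.29e-10) at 12 h, and fell by 1.34 (SE 0.10, adjusted p = 1.28e-06) from 8 h to 12 h. That scale understates the change of so low a gene: on the deposited log2 CPM scale the change at 12 h was -5.30.

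Alox5ap, which presents arachidonic acid to 5-lipoxygenase (chr5:149264767-149288153, plus strand), was the highest of the 10 genes per length at M0, at 358 ± 13.1 CPM per kilobase (SD, n = 4). It had 528 and 514 CPM in wt and 508 and 483 CPM in Treml4-/- cells at M0, 154 and 129 CPM in wt and 140 and 123 CPM in Treml4-/- cells at M1-8 h, and 79.2 and 67.8 CPM in wt and 88.5 and 75.1 CPM in Treml4-/- cells at M1-12 h. No library of 1 time overlapped another time. Alox5ap fell by 1.89 (SE 0.08, adjusted p = 1.11e-09) at 8 h and fell by 2.70 (SE 0.08, adjusted p = 6.82e-11) at 12 h, with a step of -0.81 (SE 0.08, adjusted p = 1.06e-05) between them. Lta4h (chr10:93453411-93484875, plus strand) had 75.0 to 83.6 CPM in the 4 M0 libraries, 14.0 to 17.7 CPM at 8 h and 13.2 to 15.9 CPM at 12 h. It fell by 2.22 (SE 0.08, adjusted p = 1.62e-10) at 8 h and fell by 2.33 (SE 0.08, adjusted p = 1.17e-10) at 12 h, and the 8 h and 12 h libraries overlapped, with a change between them of -0.11 (95% interval -0.28 to 0.06, adjusted p = 0.247). Of the 3 genes, Alox5 and Alox5ap were thus lower at 12 h than at 8 h, and for Lta4h no further change was detected.

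Neutrophils also carry the leukotriene B4 enzymes. The 8 neutrophil markers, 7 of which reached 1 CPM in at least 2 libraries, summed to 48.1 to 158 CPM at M0. At 8 h they summed to 72.2 to 108 CPM and at 12 h to 48.9 to 66.8 CPM. The markers went different ways: S100a8 had 8.79 to 26.4 CPM at M0 and 30.6 to 47.6 CPM at 12 h. Each of the others was lower in every 12 h library than in any M0 library. Mpo had 6.98 to 31.5 CPM at M0 and 0.516 to 1.17 CPM at 12 h. Elane had 2.58 to 11.7 and 0.159 to 0.729 CPM, and Ltf 4.90 to 20.1 and 2.02 to 2.61 CPM. Ly6g was at most 0.131 CPM in any library. In M0 replicates 1 and 2 the neutrophil sum was 134 and 48.1 CPM in wt and 118 and 158 CPM in Treml4-/- cells. Alox5 had 10.2 and 12.5 CPM in the same wt libraries and 8.51 and 8.49 CPM in the Treml4-/- libraries. The part of such cells in the falls of Alox5, Alox5ap and Lta4h was not tested.

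Both prostaglandin E2 receptors fell. Ptger2 (chr14:44988195-45003820, plus strand) had 24.6 and 20.9 CPM in wt and 23.1 and 22.4 CPM in Treml4-/- cells at M0. It had 3.96 and 3.29 CPM in wt and 5.76 and 5.36 CPM in Treml4-/- cells at M1-8 h, and 3.91 and 4.29 CPM in wt and 5.94 and 5.31 CPM in Treml4-/- cells at M1-12 h. The 8 h and 12 h libraries overlapped within each genotype, and all were far below M0. Ptger2 fell by 2.11 (SE 0.09, adjusted p = 7.25e-10) at 8 h and fell by 2.03 (SE 0.09, adjusted p = 9.70e-10) at 12 h, with a change of 0.08 (95% interval -0.12 to 0.27) from 8 h to 12 h. Ptger4 (chr15:5206661-5244187, minus strand) had 30.4 and 30.2 CPM in wt and 26.3 and 31.7 CPM in Treml4-/- cells at M0, 7.97 and 12.7 CPM in wt and 9.20 and 9.04 CPM in Treml4-/- cells at M1-8 h, and 3.72 and 4.45 CPM in wt and 5.14 and 4.58 CPM in Treml4-/- cells at M1-12 h. Its 3 times did not overlap. It fell by 1.53 (SE 0.13, adjusted p = 2.79e-07) at 8 h and fell by 2.49 (SE 0.13, adjusted p = 3.51e-09) at 12 h, and fell by a further 0.96 (SE 0.13, adjusted p = 6.48e-05) from 8 h to 12 h. At M0 the 2 receptors stood at 4.38 ± 0.3 and 4.46 ± 0.351 CPM per kilobase (SD, n = 4), within each other's spread.

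**Figure D2:**
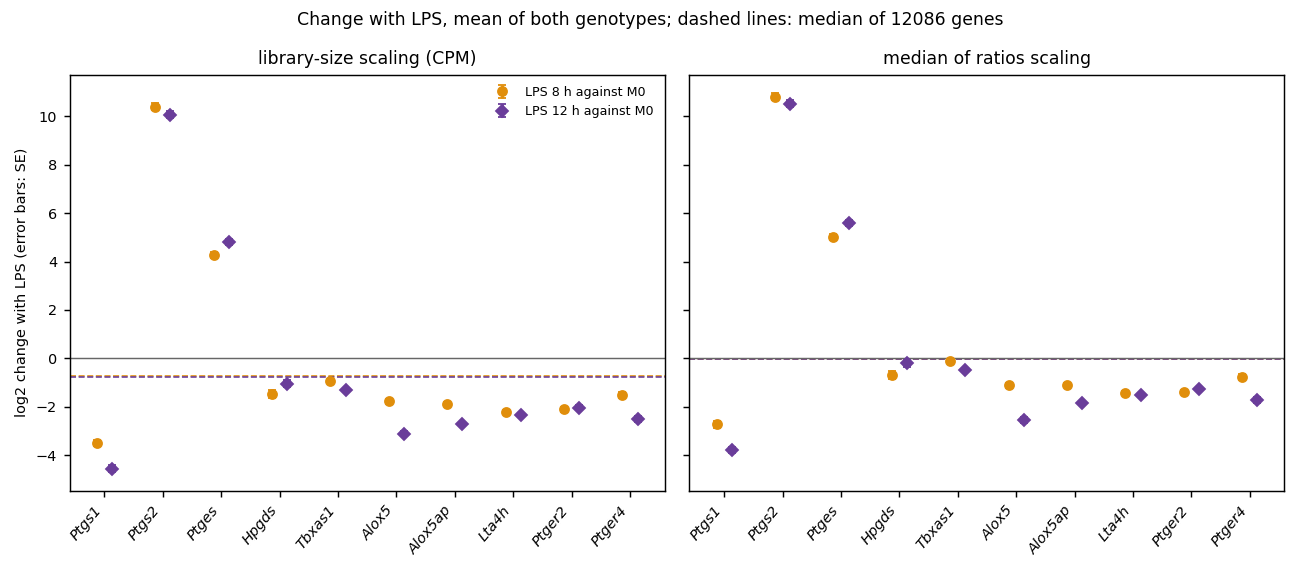
The log2 change of each gene with LPS at 8 h (circles) and 12 h (diamonds), mean of both genotypes, is plotted with library-size scaling (left, log2(CPM + 1)) and with median of ratios scaling (right); error bars are SE and dashed lines the median of all tested genes. No gene changes direction between the panels; Tbxas1 (-0.12 at 8 h and -0.47 at 12 h) and, at 12 h, Hpgds (-0.21) are the ones whose calls are lost on the right.

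From 8 h to 12 h of LPS, 5 of the 10 genes were called: Ptges rose, and Ptgs1, Alox5, Alox5ap and Ptger4 fell. Among all genes tested 13.5% were called higher and 18.7% lower in this comparison. Ptgs1 fell by 1.06 (SE 0.13, adjusted p = 3.94e-05) in this interval. The change of Ptgs2 was -0.34 (95% interval -0.66 to -0.02, adjusted p = 0.0662) and that of Tbxas1 -0.40 (adjusted p = 9.33e-05), the latter under the 1.4-fold threshold. All 5 calls were also made with median of ratios scaling.

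In each genotype taken alone, the LPS change had the same direction for all 10 genes at 8 h and at 12 h. The genotypes lay farthest apart for Hpgds at 8 h (-1.73 in wt and -1.19 in Treml4-/- cells, the latter with the library that stood apart) and for Ptger2 at 8 h (-2.36 and -1.86).

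The order of levels per length changed with LPS. At M0 Alox5ap led, followed at 18.6 ± 1.86 CPM per kilobase by Ptgs1, at 16.3 ± 0.722 by Tbxas1, at 12.8 ± 0.628 by Lta4h and at 9.14 ± 0.771 by Hpgds, and Ptgs2 was last at 0.154 ± 0.0824 (SD, n = 4 for each). Every library had more Ptgs1 (17.1 or more) than any had Tbxas1 (16.9 or less), but with the longest transcript as the length Tbxas1 came before Ptgs1. Of neighbours in this order, Ptger4 and Ptger2 overlapped, as did Ptges and Alox5. At 8 h Ptgs2 led at 496 ± 98.3 CPM per kilobase, before Alox5ap at 96.1 ± 9.53 and Ptges at 61.2 ± 9.23, with no overlap among these 3. At 12 h the order was Ptgs2 at 389 ± 44.8, Ptges at 88.7 ± 11.5 and Alox5ap at 54.7 ± 6.06, again with no overlap. Alox5 was last at both times, at 0.531 ± 0.0986 and 0.0614 ± 0.0173 CPM per kilobase.

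Whether Treml4 affects these genes was asked by comparing wt with Treml4-/- cells at each time. No member was called at M0, M1-8 h or M1-12 h, in the mean over the 3 time points, or in the difference of the LPS response between genotypes at 8 h or 12 h, by limma or by voom. Of all genes tested, 0.0993% were called at M0, 0.091% at M1-8 h, 0.132% at M1-12 h, 0.414% over the 3 time points, and 0.00827% in the difference of the response at 8 h and 0.00827% in that at 12 h, so few calls were made in any of these comparisons. An unadjusted limma p under 0.05 was reached by 1 member at M0 (Alox5), 3 at M1-8 h (Hpgds, Ptger2 and Tbxas1), 2 at M1-12 h (Ptger2 and Tbxas1) and 3 over the 3 time points (Hpgds, Ptger2 and Tbxas1), and by voom the counts were 1, 4, 2 and 3. Of all genes tested, 3.35% reached it by limma at M0, 21% at M1-8 h, 7.55% at M1-12 h and 20.1% over the 3 time points, so 3 of 10 is not far above the background at M1-8 h or over the time points.

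Ptger2 had the lowest adjusted p over the time points. At M0 both genotypes overlapped. Both wt libraries lay below both Treml4-/- libraries at M1-8 h and again at M1-12 h. In all, 4 of the 10 genes (Ptgs2, Hpgds, Tbxas1 and Ptger2) had wt lower without overlap at 8 h and 5 (Ptges, Tbxas1, Lta4h, Ptger2 and Ptger4) at 12 h, when Ptgs2 was the 1 gene with wt higher without overlap. Among all tested genes 33.9% did so at 8 h and 30.8% at 12 h, so these counts are near the background. The log2 difference of Ptger2, wt minus Treml4-/-, was -0.51 (95% interval -0.78 to -0.23, adjusted p = 0.133) at 8 h, -0.38 (-0.65 to -0.10, adjusted p = 0.448) at 12 h, and -0.30 (-0.45 to -0.14, adjusted p = 0.0880) over the 3 time points. Its LPS response at 8 h differed by -0.51 between genotypes (adjusted p = 0.729).

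Hpgds differed by -0.72 (95% interval -1.21 to -0.22, adjusted p = 0.169) at 8 h, and this value rested on 1 library: it was -0.25 (adjusted p = 0.663) without Treml4-/- M1-8 h replicate 2, and -1.19 with a call (adjusted p = 0.00378) without replicate 1 of that condition. Tbxas1 differed by -0.25 (95% interval -0.42 to -0.07, adjusted p = 0.405) at 12 h, and Alox5 by 0.37 (0.05 to 0.70) at M0 with an adjusted p of 1. With median of ratios scaling the Tbxas1 difference at 12 h shrank to -0.16 (SE 0.09). Under that scaling Ptger2 differed by -0.41 (SE 0.12) at 8 h and -0.31 (SE 0.12) at 12 h. Hpgds then differed by -0.60 (SE 0.22) at 8 h and Alox5 by 0.39 (SE 0.16) at M0, and no member was called. For Ptgs2 the interval ran from -0.83 to 0.08 at 8 h and from -0.23 to 0.68 at 12 h, so that each interval held 0 and reached past 1.4-fold on 1 side. Over the 3 time points the intervals were -0.29 to 0.24 for Ptgs2, -0.26 to 0.15 for Ptges, -0.22 to 0.26 for Ptgs1 and -0.14 to 0.16 for Alox5ap.

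**Figure D3:**
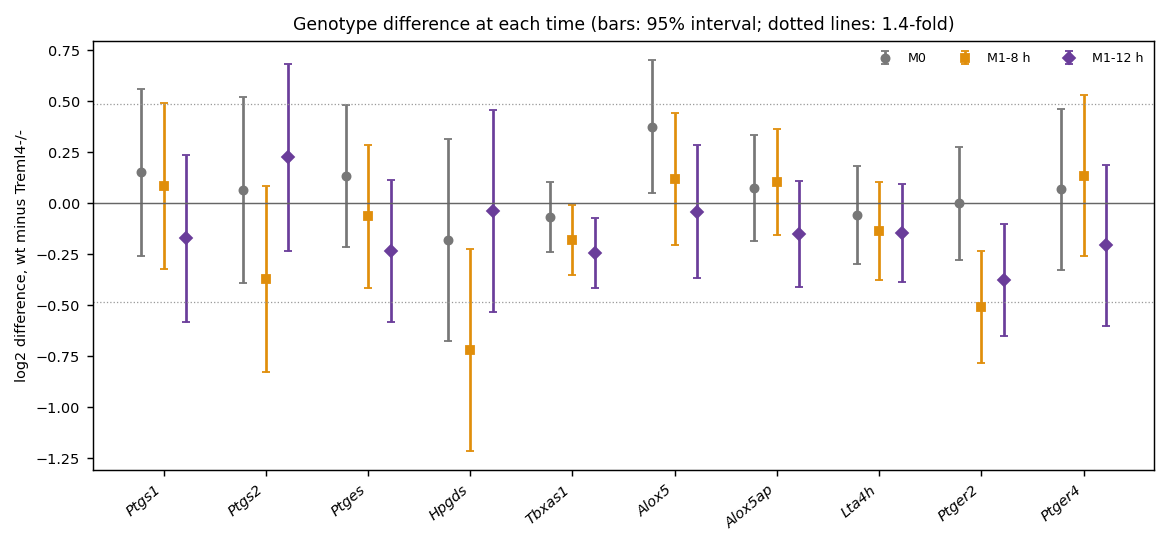
The log2 difference wt minus Treml4-/- on the log2(CPM + 1) scale is plotted for each gene at M0 (circles), M1-8 h (squares) and M1-12 h (diamonds), with 95% intervals from limma; dotted lines mark 1.4-fold. Ptger2 lies below 0 at 8 h (-0.51) and 12 h (-0.38) and Hpgds at 8 h (-0.72), and none of the 30 differences was called after adjustment over all genes.

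Of 55 other genes (phospholipases and genes of arachidonic acid release, eicosanoid synthesis, receptors and inactivation), 34 passed the filter of 1 CPM in 2 libraries. At 8 h 6 rose, 22 fell and 6 were not called, and at 12 h 8 rose, 20 fell and 6 were not called. Among all genes tested 17.1% rose and 59.8% fell at 8 h, and 16.3% rose and 60.3% fell at 12 h, so these counts are near the background. Their median log2 change was -1.01 at 8 h and -0.67 at 12 h, beside -0.72 and -0.76 for all genes tested. With median of ratios scaling the split was 11 higher and 14 lower at 8 h and 12 higher and 14 lower at 12 h. No gene of these 34 was called between genotypes at any time or over the time points by limma or by voom, with an unadjusted limma p under 0.05 for 3 at M0, 8 at M1-8 h, 3 at M1-12 h and 12 over the time points. The 8 of 34 at M1-8 h stand beside 21% of all genes tested and the 12 of 34 over the time points beside 20.1%.

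Of 12 tested phospholipases and genes of arachidonic acid release and recycling, 5 rose at 8 h and 7 fell. With median of ratios scaling 5 rose and 4 fell. Among all genes tested 17.1% rose and 59.8% fell, and with median of ratios scaling 31.1% rose and 31.3% fell. Pla2g4a, the cytosolic phospholipase A2 that frees arachidonic acid from membranes, went from 13 ± 1.89 CPM (SD, n = 4) to 88.8 ± 24.2 at 8 h and 166 ± 16.1 at 12 h, a log2 rise of 2.66 (SE 0.12, adjusted p = 1.03e-09) and 3.58 (SE 0.12, adjusted p = 9.87e-11). Acsl4, which couples arachidonic acid to coenzyme A, rose from 34.6 ± 3.47 CPM to 92.6 ± 23.8 and 70.0 ± 5.85. The highest 8 h value of both genes, 121 CPM for Pla2g4a and 127 CPM for Acsl4, was that of Treml4-/- M1-8 h replicate 2, and without it both were still called higher (2.56 and 1.24). Pla2g7, the secreted phospholipase that inactivates platelet-activating factor, rose from 896 ± 107 CPM to 1416 ± 141 and 2233 ± 212 (log2 change 0.66 and 1.32). Faah and Pla2g4c, near 0 at M0 (0.0146 and 0.0338 CPM), rose to 3.81 ± 1.84 and 1.29 ± 0.207 CPM at 12 h. The fall was largest for Daglb, a diacylglycerol lipase of the route through 2-arachidonoylglycerol, from 183 ± 30.2 CPM to 5.15 ± 1.17 and 5.77 ± 0.732, a change of -4.91 (SE 0.14, adjusted p = 3.00e-11) at 8 h. Pla2g15, the lysosomal phospholipase A2, fell from 198 ± 17.7 CPM to 36.6 ± 3.78 CPM at 8 h (log2 change -2.41, and -2.29 at 12 h), Mgll from 2.99 ± 1.38 CPM to 0.260 ± 0.0504 and 0.155 ± 0.0780, and Pla2g6 from 8.76 ± 0.789 CPM to 2.54 ± 0.309 and 3.49 ± 0.380. Lpcat3 fell by 0.60 at 8 h and fell by 0.66 at 12 h, Pla2g12a fell by 1.08 and fell by 0.68, and Mboat7 fell by 0.64 at 8 h. With median of ratios scaling none of these 3 was called, and Lpcat3 and Mboat7 turned at 8 h and Lpcat3, Mboat7 and Pla2g12a at 12 h. Exons of Daglb overlap those of Rac1 on the other strand, and whether the counting used strand is not given in the sources used here.

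Of the other prostanoid synthases, Cbr1, which reduces prostaglandin E2, fell from 31.1 ± 2.06 CPM to 6.26 ± 0.323 and 8.85 ± 0.545, and Akr1b3, an aldose reductase with prostaglandin F synthase activity, from 291 ± 30.9 CPM to 121 ± 16.9 and 63.6 ± 8.47. Ptges2 fell from 15.5 ± 0.858 CPM to 5.91 ± 0.998 and 5.99 ± 0.488. Ptges3, the cytosolic prostaglandin E synthase, was not called (0.16 and 0.27). With median of ratios scaling Ptges3 was called higher at both times (0.94 and 1.10), Akr1b3 was not called at 8 h (-0.46) and Ptges2 not at 12 h (-0.46).

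Downstream of leukotriene A4, all 5 tested enzymes of the cysteinyl leukotriene arm fell at both times. Among all genes tested 59.8% were called lower at 8 h and 60.3% at 12 h. With median of ratios scaling Ggt5 was not called at either time, and Mgst3 and Dpep2 not at 8 h. Of all genes tested, 31.3% were then called lower at 8 h and 32.6% at 12 h. Ltc4s, leukotriene C4 synthase, had 7.34 ± 0.682 CPM at M0, 1.04 ± 0.268 at 8 h and 0.310 ± 0.151 at 12 h, a log2 change of -2.03 (SE 0.10, adjusted p = 2.97e-09) and -2.68 (SE 0.10, adjusted p = 3.07e-10). Mgst2, which can also make leukotriene C4, fell from 23.3 ± 2.63 CPM to 3.72 ± 0.305 and 1.5 ± 0.297. Mgst3 fell from 76.6 ± 6.15 CPM to 31.9 ± 5.04 and 9.46 ± 1.97, Dpep2, a dipeptidase that turns leukotriene D4 into leukotriene E4, from 348 ± 47.9 CPM to 181 ± 33.3 and 121 ± 11.1, and Ggt5 from 1.18 ± 0.103 CPM to 0.444 ± 0.139 and 0.413 ± 0.113. Of the genes that inactivate eicosanoids, Hpgd, which oxidises prostaglandin E2, fell from 34.6 ± 6.10 CPM to 12.2 ± 2.55 and 3.97 ± 0.235 (log2 change at 12 h -2.83, SE 0.10, adjusted p = 2.22e-10), and Cyp4f18, which hydroxylates leukotriene B4, from 15.6 ± 1.01 CPM to 3.91 ± 0.443 and 3.72 ± 0.490. The prostaglandin reductases Ptgr1 and Ptgr2 went from 165 ± 24.5 and 43.2 ± 5.76 CPM at M0 to 61.8 ± 10.0 and 8.12 ± 1.82 at 8 h and 116 ± 5.06 and 12.9 ± 1.35 at 12 h, where Ptgr1 was not called. Of the exporters, Abcc1 fell by 0.62 at 8 h and was not called at 12 h, and Abcc4 fell by 0.52 at 12 h and was not called at 8 h. With median of ratios scaling neither fall was called and both turned (0.17 and 0.31), Abcc1 was called higher at 12 h and Abcc4 at 8 h.

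Among the other prostanoid receptors, Ptger3, the EP3 receptor for prostaglandin E2, fell from 4.94 ± 0.380 CPM to 0.908 ± 0.217 and 0.617 ± 0.242 (log2 change at 8 h -1.64, SE 0.12, adjusted p = 8.43e-08). Ptger1, the remaining prostaglandin E2 receptor, had 0.482 ± 0.176 CPM at M0 and was not tested, and the receptor for prostaglandin F2 alpha (Ptgfr) had 0 reads in all 12 libraries. Of the receptors for prostaglandin D2, Ptgdr had 0 reads in all 12 libraries and Ptgdr2 had a mean of 0.0245 CPM at M0, 0.0882 CPM at 8 h and 0.0486 CPM at 12 h, with at most 0.121 CPM in any library. The thromboxane receptor Tbxa2r had at most 0.0579 CPM in any library. Pparg, a nuclear receptor that fatty acids and prostaglandin D2 derivatives can activate, fell from 36.9 ± 2.34 CPM to 0.677 ± 0.111 and 0.795 ± 0.272 (log2 change -4.5 at 8 h, SE 0.09, adjusted p = 1.77e-12). Ptgir, the prostacyclin receptor, was not called at 8 h (-0.29) or 12 h (0.21), and with median of ratios scaling its change was 0.48 and 1.03, turned at 8 h and called at 12 h.

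None of the 4 tested leukotriene and lipoxin receptors was called lower. Of all genes tested, 59.8% were called lower at 8 h and 60.3% at 12 h. At 8 h 1 of the 4 was called higher, and at 12 h 3, beside 17.1% and 16.3% of all genes. With median of ratios scaling all 4 were called higher at both times, beside 31.1% and 32.6% of all genes. Fpr2, a receptor for formyl peptides and lipoxin A4, rose from 1.79 ± 0.564 CPM to 183 ± 22.5 and 193 ± 25.8, a log2 rise of 6.06 (SE 0.12, adjusted p = 2.22e-12) at 8 h. Its exons overlap those of Fpr3 on the same strand, so its reads cannot be fully told apart from those of that gene. Ltb4r1, the high-affinity receptor for leukotriene B4, had 1.06 ± 0.0253 CPM at M0, 1.82 ± 0.404 at 8 h and 2.78 ± 0.468 at 12 h and was called at 12 h (0.87, SE 0.10, adjusted p = 3.91e-06), as was Cysltr2 (1.05, SE 0.08, adjusted p = 2.16e-07). Cysltr1 was not called (-0.09 at 8 h and 0.38 at 12 h), but with median of ratios scaling it was called higher at both times (0.61 and 1.13). Its 8 h level was highest, at 14.5 CPM, in Treml4-/- M1-8 h replicate 2, while the lowest 8 h library had 6.09 CPM. Without that library the 8 h change was -0.31 per library size and 0.39 with median of ratios scaling, and neither was called.

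**Figure D4:**
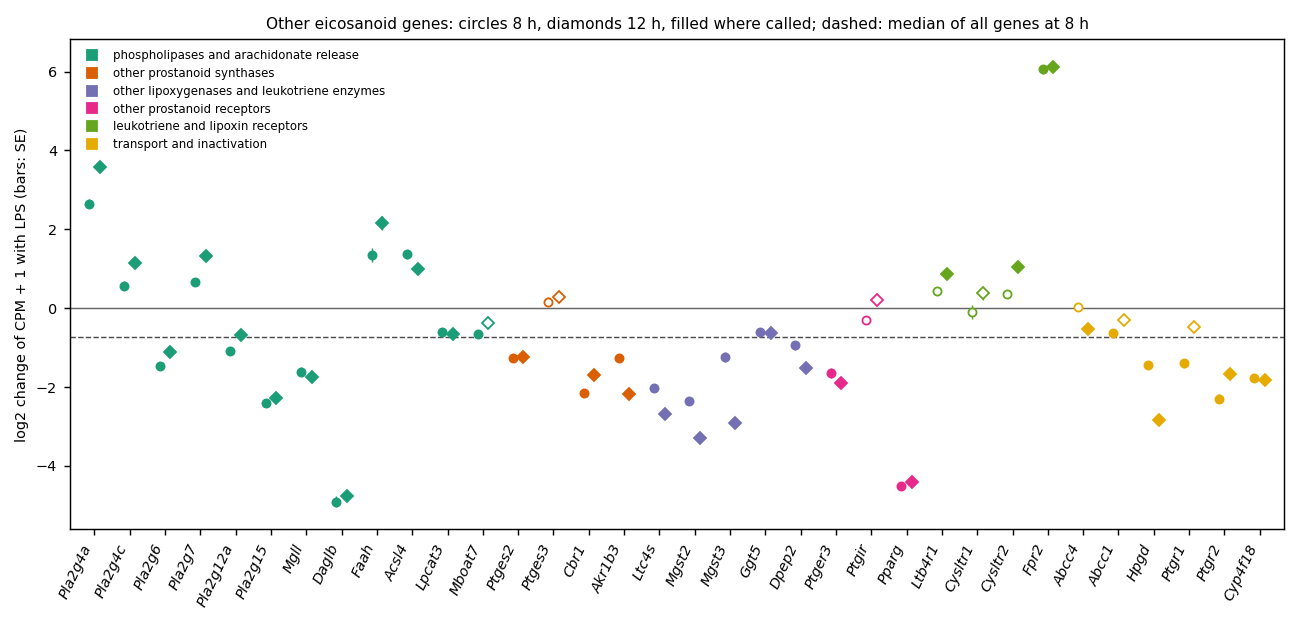
The log2 change of CPM + 1 with LPS is plotted for the 34 other eicosanoid genes tested, coloured by group, at 8 h (circles) and 12 h (diamonds); bars are SE, filled symbols were called and the dashed line is the median of all tested genes at 8 h. Fpr2 (6.06) and Pla2g4a (2.66) rise most at 8 h and Daglb (-4.91) and Pparg (-4.5) fall most, and with median of ratios scaling 5 of the 34 genes turn direction at 8 h (Abcc1, Cysltr1, Lpcat3, Mboat7 and Ptgir) and 6 at 12 h (Abcc1, Abcc4, Lpcat3, Mboat7, Pla2g12a and Ptgr1).

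For each of the 10 genes, the tested genes outside the eicosanoid lists with the most similar profile were found as the smallest root mean square difference of mean-centred log2(CPM + 1) over the 12 libraries. Closest to Ptgs2 were Serpina3g, at a difference of 0.33, and Cxcl9, at 0.41, beside a root mean square spread of 4.83 for Ptgs2 itself. Ptges was closest to Ccl8 (0.21) and Phf11d (0.24), Ptgs1 to Abcb4 (0.18) and Padi2 (0.18), and Alox5 to Hsd17b4 (0.16) and Nop16 (0.16). The nearest gene was Zfp120 for Hpgds (0.11), Gm12669 for Tbxas1 (0.07), Pccb for Alox5ap (0.09), Tmem141 for Lta4h (0.09), Pip4k2a for Ptger2 (0.12) and Fut4 for Ptger4 (0.13).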

How the data were processed

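RNA was sequenced after poly(A) selection in 12 libraries, grouped by the labels. Per the labels and the methods of the study, the authors aligned stranded paired-end reads with STAR (build mm10) and counted them on genes with Subread, and deposited log2 CPM, which is counts scaled per library and logged after adding a prior of 0.25 reads. The prior was taken away: whole reads (within 0.001) came back for 100% of values, giving CPM. Genes reaching 1 CPM in 2 or more libraries (12086) entered limma 3.58.1 (R 4.3.3) on the log2(CPM + 1) scale (trended prior variance, 1 mean per condition, Benjamini-Hochberg adjustment over all genes tested). Genes were called at an adjusted p under 0.05 and at least 1.4-fold. With LPS, both genotypes were averaged. The design assumed CPM, and voom on the recovered reads was an alternative. Read counts cover counting error only. Replicate libraries were not duplicates, since chi-square over its degrees of freedom was 11.3 to 51.7 within pairs. The test was checked on simulated data for the change with LPS at 8 h only. There, 23 of 50 genes changed 1.4-fold and 50 of 50 changed 2-fold were called, with 8 false calls (11571 genes tested). Whether so few false calls would be made when the median gene changes, as it did with LPS, was not tested. Comparisons between genotypes, with 2 libraries on each side, were not simulated.

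The 10 genes and all lists (55 other eicosanoid genes and markers of macrophages, LPS response, mast cells, neutrophils, megakaryocytes, dendritic, stromal, B, T and NK cells) were chosen with earlier results of these data known. All members were named. Other eicosanoid genes were given values if called at 8 h or 12 h with a mean of at least 1 CPM, or if they act on a product of a member. For likeness, the 2 nearest genes per member were sought. Positions and exon lengths come from GENCODE M21 (GRCm38) and promoter windows from RefSeq (GRCm38.p6). Exons of Ptgs1, Tbxas1, Alox5ap, Ptger2 and Ptger4 overlap annotated genes on the other strand, and whether counting used strand is not given in the sources used here. Alternatives were a pseudocount of 0.1, no filter, a filter at 5 CPM, a replicate block, also within genotype, median of ratios and quantile scaling, no trend, only the libraries compared, no minimum fold, the deposited log2 CPM, voom, and leaving out each library. Median of ratios scaling without Treml4-/- M1-8 h replicate 2 was added after seeing the data. Python 3.11.15, numpy 2.4.6 and pandas 2.3.3 were used for tables.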

Additional observations from a re-analysis of the deposited data

How the results depend on the processing

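Directions of all 10 genes with LPS, at 8 h, at 12 h and from 8 h to 12 h, were the same in all 24 alternatives. Of these values, 711 stayed on their side of the threshold, 6 lost their call and 3 gained one. Calls were lost with median of ratios scaling for Tbxas1 at 8 h (-0.12) and 12 h (-0.47) and Hpgds at 12 h (-0.21), so 9 and 8 members were called. Without a minimum fold, 7 members and 23 other eicosanoid genes, against 5 and 15, were called from 8 h to 12 h. Between genotypes, the count of members called at M1-8 h was 0 to 1 over the fits that leave out 1 library, the 1 being Hpgds without Treml4-/- M1-8 h replicate 1. That of other eicosanoid genes was 0 to 1 at M0 (Mgll, without Treml4-/- M0 replicate 2) and 0 to 3 at M1-8 h (Acsl4, Cysltr1 and Pla2g4a, without the same library as for Hpgds). The labels repeat replicate numbers over genotypes and times, and do not say whether a number marks samples of 1 preparation. Correlations of deviations cannot show whether samples were paired, and the main fit used no block. Deviations of same-numbered wt and Treml4-/- libraries correlated at -0.26, 0.30 and 0.06 at M0, 8 h and 12 h. Within a genotype the correlations between times were 0.12 (M0 and 8 h), 0.06 (M0 and 12 h) and 0.41 (8 h and 12 h) in wt and 0.46, -0.20 and -0.27 in Treml4-/- cells. With a replicate block, 10, 10 and 5 members were called with LPS at 8 h, at 12 h and from 8 h to 12 h, and 0 between genotypes. Across genes, the split of called genes at 8 h was 3362 higher and 4342 lower with quantile scaling.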

Other observations

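Alox15, another lipoxygenase, stood out in 1 library. It had 9.76 CPM in wt M0 replicate 1 and 0.315 CPM in wt M0 replicate 2, and between 0.139 and 0.652 CPM in the other libraries. Ptgis, prostacyclin synthase, was highest in the same library, at 0.636 CPM against at most 0.0521 CPM elsewhere. Neither gene passed the filter, which asked for 1 CPM in 2 libraries, so neither was tested.

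Of the dendritic cell markers, Xcr1, Clec9a and Ccr7 were higher with LPS in every library. Xcr1 had 0 reads at M0 and 3.91 to 7.19 CPM at M1-8 h. Clec9a had 0.0579 to 0.168 CPM and 1.53 to 2.21 CPM, and Ccr7 0.0771 to 0.285 CPM and 7.72 to 18.3 CPM. Flt3, a marker of dendritic cell precursors, had 0.393 to 0.713 CPM at M0 and at most 0.223 CPM at 8 h. The remaining markers stayed low: Zbtb46 had 0.0964 to 0.206 CPM at M0 and 0.120 to 0.186 CPM at 8 h. Siglech had at most 0.0928 CPM in any library. The list as a whole summed to 0.708 to 1.32 CPM at M0, 16.0 to 27.6 CPM at 8 h and 15.2 to 29.6 CPM at 12 h. The stromal markers summed to at most 5.34 CPM, the B cell markers to at most 6.48 CPM and the T and NK cell markers to at most 0.826 CPM in any library.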
